A study of Mus musculus with 4 samples.

Results

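In 6 stretches of the mouse autosomes, called open-chromatin regions were sparse and ranked nearer the top of the peak lists of Hox-/- than of wt embryonic stem cells. They are described here with 2 Mb of flank on each side. They were chosen by their coordinates in the mm10 genome, which had themselves been read from the ranks of these same libraries, so all values between the genotypes in them are a description and carry no test. The stretches are chr1:140895313-149961481, chr3:73571768-81976360, chr4:59531191-62090199, chr10:72650914-74848749 and, on chromosome 12, a proximal one at chr12:13502712-16278330 and a distal one at chr12:91259345-96848540. Merging the peaks of all libraries wherever they overlapped gave 208211 regions, and 971 of them lay in the 6 stretches, 175 on chromosome 1, 326 on chromosome 3, 113 on chromosome 4, 67 on chromosome 10, 99 in the proximal and 191 in the distal stretch of chromosome 12. The 12 flanks held 1992 regions.

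The libraries were made by ATAC-seq, in which a transposase cuts accessible DNA and leaves sequencing adapters there. Mouse embryonic stem cells of genotype wt and cells labelled Hox-/-, which the series title describes as without any Hox function, gave 2 libraries each. All 4 were grown in the same medium with serum, leukaemia inhibitory factor, the GSK-3 inhibitor CHIR99021 and the MEK inhibitor PD0325901. Which alleles make up Hox-/-, whether its cells are 1 clone, and whether replicates 1 and 2 are separate cultures is not given in the sources used here, so the spread between replicates may be technical. The titles of the Hox-/- libraries carry the letters BADC, which the labels do not explain. The wt lists held 213705 and 216795 lines and the Hox-/- lists 191704 and 200214, replicate 1 first here and wherever a pair of values is given. The lowest local background, a stand-in for depth recovered from the lists, was 7.46 and 7.02 reads in wt, while for Hox-/- it was 4.77 in replicate 1 and 7.36 in replicate 2. All 7 embryonic stem cell marker genes (Pou5f1, Sox2, Nanog, Esrrb, Zfp42, Tfcp2l1 and Klf4) had a called gene end in every library. The primitive endoderm genes Sox17 and Gata6 and all 4 fibroblast genes (Col1a1, Col1a2, Thy1 and Twist2) also did, while Gata4 had none in any, so these lists did not tell cell types apart.

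Open chromatin in mammalian genomes gathers at gene promoters and at distal elements such as enhancers, and promoters rich in CpG dinucleotides tend to be open in most cell types. Long stretches with few genes and few open elements lie between the gene-rich parts of chromosomes. Many such stretches are late replicating and hold tissue-restricted genes, for example of neurons, among isolated widely expressed ones.

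The contrast within the stretches is easiest to see in the promoters themselves, read from RefSeq windows of assembly GRCm38.p6, the assembly that mm10 carries. The following are the 250 bases upstream of the gene start, 5′ to 3′ on the gene's strand, for the gene with the best-ranked open gene end in each stretch. Capitals mark letters that match a searched motif on either strand: GGGCGG (the SP/KLF box), CCAAT (the CCAAT box), CCGGAAG (an ETS site), TGACGTCA (the cAMP response element), CACGTG (an E-box) or TATAAA (the TATA box). Rgs2, a regulator of G-protein signalling, is at chr1:144004150-144004399, minus strand. The start of 4930579G24Rik, which shares its open region with Etfdh, an enzyme of the mitochondrial electron transfer chain, is at chr3:79628829-79629078, plus strand. Inip, a subunit of a single-stranded DNA binding complex, is at chr4:59783856-59784105, minus strand, and the kinetochore gene Zwint is at chr10:72654596-72654845, plus strand. Lratd1 is at chr12:14152039-14152288, minus strand, and the centriolar gene Cep128 is at chr12:91384410-91384659, minus strand.
Rgs2: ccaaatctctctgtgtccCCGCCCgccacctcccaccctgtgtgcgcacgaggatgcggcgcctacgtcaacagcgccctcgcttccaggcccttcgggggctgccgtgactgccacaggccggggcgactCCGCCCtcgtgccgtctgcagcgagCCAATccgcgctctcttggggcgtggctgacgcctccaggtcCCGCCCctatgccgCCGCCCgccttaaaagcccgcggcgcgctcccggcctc
4930579G24Rik: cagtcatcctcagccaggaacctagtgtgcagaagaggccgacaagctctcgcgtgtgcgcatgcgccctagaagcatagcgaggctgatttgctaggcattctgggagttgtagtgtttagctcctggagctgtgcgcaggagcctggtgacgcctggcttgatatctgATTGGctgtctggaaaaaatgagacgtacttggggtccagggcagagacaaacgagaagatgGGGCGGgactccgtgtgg
Inip: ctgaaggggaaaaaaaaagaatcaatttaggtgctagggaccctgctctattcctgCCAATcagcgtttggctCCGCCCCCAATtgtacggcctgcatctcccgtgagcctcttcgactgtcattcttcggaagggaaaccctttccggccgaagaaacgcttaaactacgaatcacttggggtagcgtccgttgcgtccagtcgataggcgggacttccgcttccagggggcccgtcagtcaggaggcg
Zwint: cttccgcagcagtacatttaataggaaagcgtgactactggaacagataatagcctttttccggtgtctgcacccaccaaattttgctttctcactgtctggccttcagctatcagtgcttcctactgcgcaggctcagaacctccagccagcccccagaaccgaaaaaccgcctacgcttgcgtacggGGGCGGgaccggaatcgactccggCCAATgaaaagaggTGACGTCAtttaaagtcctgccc
Lratd1: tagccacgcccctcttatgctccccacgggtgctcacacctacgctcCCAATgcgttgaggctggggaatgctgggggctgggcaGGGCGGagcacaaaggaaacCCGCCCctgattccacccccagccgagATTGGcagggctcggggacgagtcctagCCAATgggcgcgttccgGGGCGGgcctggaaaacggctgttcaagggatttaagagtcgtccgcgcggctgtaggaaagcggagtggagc
Cep128: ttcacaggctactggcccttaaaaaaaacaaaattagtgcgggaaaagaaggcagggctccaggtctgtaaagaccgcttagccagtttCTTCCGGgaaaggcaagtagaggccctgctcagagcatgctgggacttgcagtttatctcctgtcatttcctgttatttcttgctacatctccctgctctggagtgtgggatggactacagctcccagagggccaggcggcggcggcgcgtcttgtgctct

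Set against them are 5 promoter windows of the same stretches in which no library had a called region, the ones with the fewest CpG in each stretch that had such a window. They belong to Rgs13 (chr1:144177373-144177622, minus strand), another regulator of G-protein signalling, to Gm29808 (chr3:80991305-80991554, plus strand), where the next region, chr3:80991916-80992360, lies past the start and was called in all 4 libraries, to Mup-ps16 (chr4:61782812-61783061, plus strand), in the cluster of major urinary protein genes, to a start within Pcdh15 (chr10:73821617-73821866, plus strand), a protocadherin gene of hair cells, and to Gm40892 (chr12:92894951-92895200, minus strand).
Rgs13: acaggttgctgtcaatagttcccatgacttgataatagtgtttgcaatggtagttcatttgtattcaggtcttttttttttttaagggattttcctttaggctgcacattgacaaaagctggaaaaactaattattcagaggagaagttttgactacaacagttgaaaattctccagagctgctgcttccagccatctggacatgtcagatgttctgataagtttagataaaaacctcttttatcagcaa
Gm29808: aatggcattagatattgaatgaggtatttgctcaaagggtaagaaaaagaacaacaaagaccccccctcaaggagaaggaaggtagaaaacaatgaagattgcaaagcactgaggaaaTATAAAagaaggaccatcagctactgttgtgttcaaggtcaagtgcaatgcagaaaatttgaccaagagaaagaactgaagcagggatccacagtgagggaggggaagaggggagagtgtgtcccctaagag
Mup-ps16: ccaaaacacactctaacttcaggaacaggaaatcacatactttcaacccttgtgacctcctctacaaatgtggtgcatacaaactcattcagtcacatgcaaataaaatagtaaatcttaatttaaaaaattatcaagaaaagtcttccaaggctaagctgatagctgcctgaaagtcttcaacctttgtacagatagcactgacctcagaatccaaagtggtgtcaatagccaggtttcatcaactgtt
Pcdh15: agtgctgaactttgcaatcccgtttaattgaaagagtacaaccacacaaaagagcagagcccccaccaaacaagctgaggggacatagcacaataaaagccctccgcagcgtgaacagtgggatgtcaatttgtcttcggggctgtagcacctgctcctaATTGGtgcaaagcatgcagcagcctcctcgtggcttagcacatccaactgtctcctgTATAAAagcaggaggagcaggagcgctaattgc
Gm40892: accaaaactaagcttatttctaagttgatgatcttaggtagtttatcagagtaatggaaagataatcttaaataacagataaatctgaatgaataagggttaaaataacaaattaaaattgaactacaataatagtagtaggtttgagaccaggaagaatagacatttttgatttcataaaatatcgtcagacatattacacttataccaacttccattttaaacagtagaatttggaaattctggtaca

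The 6 open windows hold 30 (Rgs2), 12 (4930579G24Rik), 18 (Inip), 14 (Zwint), 19 (Lratd1) and 8 (Cep128) CpG, and the 5 uncalled ones, picked for low CpG, hold 0, 0, 0, 6 (Pcdh15) and 1. RefSeq lists 91 windows of 62 genes in the stretches. Many of the uncalled ones belong to Mup genes, and those at Mup-ps12 and Mup-ps16 mostly overlap each other. The values below for all windows and for uncalled windows thus weigh that gene cluster heavily. Windows under a region called in all 4 libraries had a median of 13 CpG (38 windows), and windows with no called region had a median of 1 (51 windows), against 16 and 2 over the autosomes. Of the stretch windows, 20.9% held the SP/KLF box, against 43.4% of all 20085 autosomal windows of that length. The CCAAT box was in 47.3% against 35.3%, the ETS site in 3.30% against 9.21%, the cAMP response element in 2.2% against 1.98%, the E-box in 5.49% against 6.69% and the TATA box in 9.89% against 11.7%. Uncalled windows make up 56.0% of the stretch windows and 33.1% of the autosomal ones, and the SP/KLF box was in 0% and 10.1% of these. Under regions called in all 4 libraries it was in 50.0% against 61.3%. A match to these letters is a description of the window and not a binding site.

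The stretches were poor in regions against the autosomes, but not all of them clearly so against their own flanks. Together they spanned 30.6 Mb and held 31.7 merged regions per Mb, compared with 83.0 in the flanks and 84.8 over the autosomes. The stretch on chromosome 1 was the sparsest, with 19.3 regions per Mb against 77.5 in its flanks. The stretches on chromosome 4 (44.2 against 118), chromosome 10 (30.5 against 128) and proximal chromosome 12 (35.7 against 103) also lay below their flanks. The stretch on chromosome 3 held 38.8 per Mb and its flanks 40.5, so it was only slightly poorer, and the distal stretch of chromosome 12 held 34.2 and its flanks 31.5, so it was not. On chromosome 3 the left flank held 14.5 per Mb and the right one 66.5. Protein-coding genes numbered 77, or 2.52 per Mb, against 6.96 in the flanks and 8.61 over the autosomes. Chromosome 4 was the exception, with 29 genes in 2.56 Mb, 23 of which were Mup genes.

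Within the stretches the regions were clustered. Cut into 65 pieces of up to 500 kb, 2 pieces held no region and one on chromosome 3 held 88. The longest interval without a called region was 1076 kb at chr4:60479872-61555917, inside the Mup cluster, and the next longest were 504 kb on distal chromosome 12 and 432 kb on chromosome 1. Long intervals without a protein-coding gene were 2.93 Mb between Brinp3 and Pla2g4a on chromosome 1, 2.80 Mb between Gm40892 and Flrt2 on distal chromosome 12, 2.35 Mb between Fstl5 and Rapgef2 on chromosome 3 and 1.64 Mb between Lratd1 and Trib2 on proximal chromosome 12.

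More of the stretch regions were called in each Hox-/- library than in either wt library, the opposite of what held outside. The wt libraries called 60.4% and 63.7% of the merged stretch regions, and the Hox-/- libraries 77.5% and 81.9%. The wt mean of 62.0% ± 2.40 (SD, n = 2) compared with a Hox-/- mean of 79.7% ± 3.06 (SD, n = 2), which put Hox-/- higher by 17.7 percentage points. The 2 genotypes did not overlap in the stretches. In the flanks the shares were 79.6% and 80.9% in wt and 72.8% and 76.2% in Hox-/-, and over the autosomes 80.1% and 81.2% in wt and 72.1% and 76.5% in Hox-/-. There the order was turned around, with a Hox-/- minus wt difference of −5.75 points in the flanks and −6.39 points over the autosomes. Each stretch had both Hox-/- libraries above both wt libraries, by 16.9 points on chromosome 1, 21.2 on chromosome 3, 12.4 on chromosome 4, 20.1 on chromosome 10 and 17.7 and 14.7 on proximal and distal chromosome 12. With 2 libraries of each genotype an exact permutation test cannot give a two-sided p under 0.33, and none was run because these libraries chose the stretches.

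**Figure D1:**
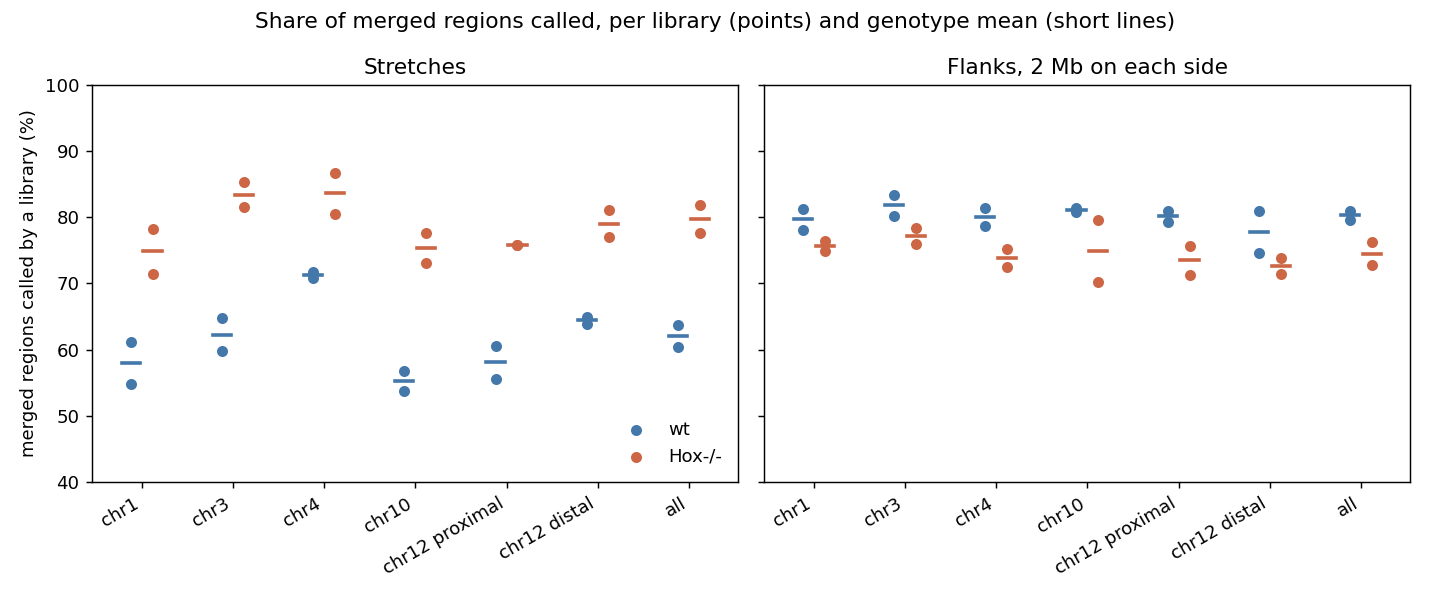
Share of merged regions that each library called (vertical axis, percent) in each stretch (left) and in its flanks (right). Points are libraries and short lines are genotype means. In every stretch both Hox-/- libraries lie above both wt libraries, and over all flanks the wt libraries are higher.

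Regions called in both Hox-/- libraries and in neither wt library numbered 85 of the 971, or 8.75%, against a background of 1.24% of all autosomal regions. The reverse pattern, both wt and neither Hox-/-, was found for 9 regions, or 0.927%, against a background of 3.82%. The 85 regions were weak. Their median width was 323 bp, and the best of them by its worse library, at chr10:74108423-74108706 inside the hair-cell protocadherin gene Pcdh15, was at place 103772 in that library's list. In the chromosome 3 stretch the best was at chr3:79325385-79325678, near an end of Gm17359, at place 110398. Only 2 of the 85 lay within 1 kb of a protein-coding gene end, one of them at Inip (chr4:59770330-59770795), where a second, strong region was called in all 4 libraries.

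Called more often, the regions were also nearer the top of the Hox-/- lists. Ranks were compared among the 120132 autosomal regions called in all 4 libraries, so that the 4 rankings were equally long, with rank 1 for the highest −log10 p. Of the 971 stretch regions 469 (48.3%) met that condition, so the others have no rank here. The wt libraries had median ranks of 71418 and 70024 for them, and the Hox-/- libraries 55778 and 53984. In the flanks it was 64466 and 64635 in wt and 62818 and 63059 in Hox-/-. Pooled, the stretch regions thus had medians below the middle of the list in wt and above it in Hox-/-. Single stretches differed: on chromosome 10 the Hox-/- medians, 79700 and 65001, were also below the middle, and on distal chromosome 12 that of Hox-/- replicate 1 was, at 66427, with 58449 in replicate 2.

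The rank shift used below is the mean log2 rank in wt minus the mean log2 rank in Hox-/-, so it is positive where a region was nearer the top in Hox-/-, and a value of 1 stands for a rank number 2 times smaller. Its median was 0.34 over the stretch regions (quartiles 0.11 and 0.62), against 0.01 in the flanks and 0.00 over the autosomes. It was 0.32 for Hox-/- replicate 1 and 0.35 for replicate 2, each against the wt mean, while replicate against replicate the median shift was 0.01 in wt and 0.01 in Hox-/-. The shift was positive at 407 of the 469 regions (86.8%), against a background of 50.7%. Both Hox-/- ranks were better than both wt ranks at 283 regions (60.3%), against a background of 20.5%, and both were worse at 18 regions (3.84%), against a background of 20.4%. Ranking by the fold over background in place of the p-value gave a median shift of 0.17 and 38.4% of regions higher in both Hox-/- libraries.

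By stretch the median shift was 0.41 on chromosome 1 (71 regions), 0.35 on chromosome 3 (171), 0.30 on chromosome 4 (65), 0.20 on chromosome 10 (30), and 0.36 (44) and 0.34 (88) in the proximal and distal stretches of chromosome 12. Regions ranked higher in both Hox-/- libraries numbered 44, 107, 39, 13, 28 and 52 in the same order. Chromosome 10 was the lowest of the 6 by both the median and the share. Ranked by fold the medians were 0.22, 0.16, 0.13, 0.23, 0.21 and 0.16, so chromosome 10 was then not the lowest. On chromosome 10 the median was 0.097 with the 100000 strongest lines, 0.37 by rank in the full list and 0.015 when ranked by recovered background, and on chromosome 1 it was 0.16 when ranked by recovered background and 0.26 without Hox-/- replicate 2. On chromosome 3 it was 0.59 with the 100000 strongest lines, and on chromosome 4 it was 0.51 when ranked by recovered background. The replicates of Hox-/- differed on chromosome 10 by a median shift of 0.19, close to the 0.20 between the genotypes. Those of wt differed on proximal chromosome 12 by 0.10. The pair of flanks on chromosome 3 was the only one of the 6 pairs with a median over 0.1, at 0.14, and 35.9% of their regions were higher in both Hox-/- libraries. The flanks on chromosome 10 had a median of 0.00 and 18.5% of such regions.

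**Figure D2:**
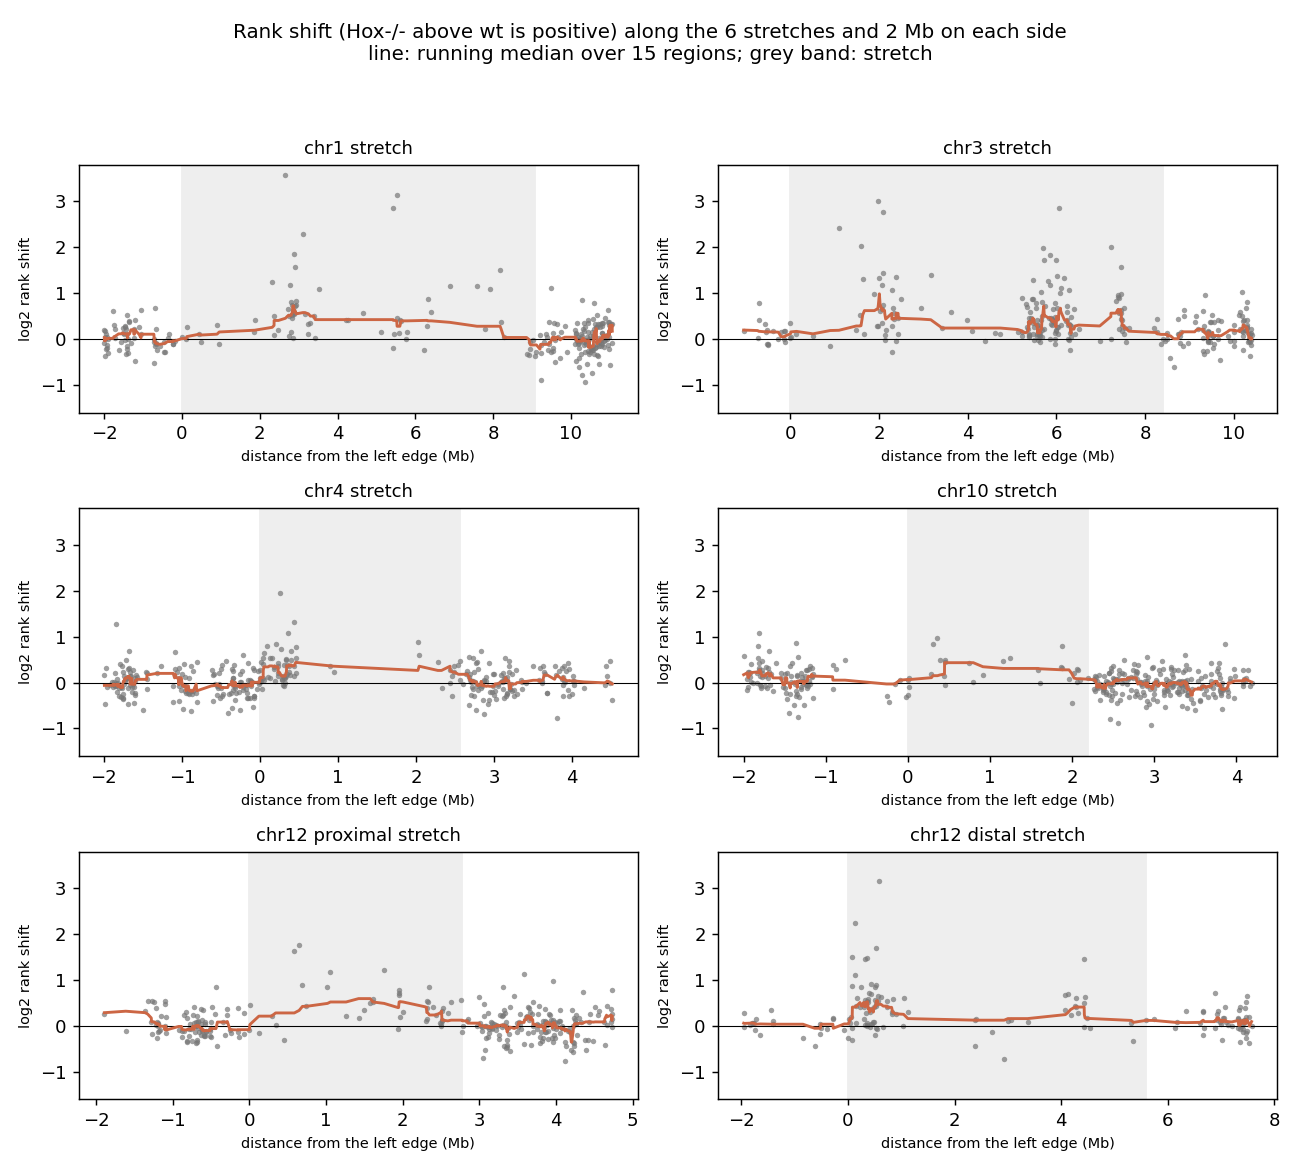
Log2 rank shift (vertical axis, positive when nearer the top in Hox-/-) of each region called in all 4 libraries against its distance from the left edge of the stretch (horizontal axis, Mb). Grey bands are the stretches and lines are running medians over 15 regions. Regions sit in clusters, and the line is above 0 through most of each stretch and near 0 in most flanks.

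The signal that goes into the p-value was recovered from the lists as the number of reads piled up at the summit, and was expressed relative to the median of the library's own regions. This measure was added after the ranks had been seen. In the stretches the median relative pileup was 0.753 and 0.750 in wt and 1.00 and 1.03 in Hox-/-. In the flanks it was 0.864 and 0.875 in wt and 0.885 and 0.892 in Hox-/-. Region by region the pileup was 1.39 times as high in Hox-/- as in wt in the stretches, 1.02 times in the flanks and 1.01 times over the autosomes (medians). The stretches resembled each other on this scale, at 1.37 on chromosome 1, 1.41 on chromosome 3, 1.37 on chromosome 4, 1.29 on chromosome 10, and 1.35 and 1.42 on proximal and distal chromosome 12. The local background that the caller set beside the pileup moved with it. It was above the lowest value of the library at 40.3% and 41.4% of stretch regions in wt and at 57.6% and 57.1% in Hox-/-, compared with 61.1% and 60.8% in wt and 60.8% and 60.4% in Hox-/- in the flanks. The part of this background in the rank shift was not tested, and the lists hold no values between called intervals. From these lists a difference in how open the DNA is and a difference in how much DNA of a stretch entered the library cannot be told apart, and this holds for the ranks too.

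Strong and weak regions differed more in rank shift than in pileup. Split by mean log2 rank over all 4 libraries, the top decile of autosomal regions included 61 of the stretch regions, and these had a median shift of 1.33, with 54 of them (88.5%) higher in both Hox-/- libraries, against 19.7% of all autosomal regions of that decile. The upper tercile had a median shift of 0.67 (155 regions), the middle tercile 0.41 (150) and the lower tercile 0.14 (164). In relative pileup the same groups were 1.5, 1.43, 1.4 and 1.33 times as high in Hox-/-. From the top decile to the lower tercile the pileup ratio fell less than the shift in log2 rank, and the cause was not tested. In the flanks the shift was −0.08 for the top decile and 0.03, 0.02 and 0.01 for the terciles. The mean rank that cut these groups includes the Hox-/- ranks, so a region high in Hox-/- reaches a stronger group more easily.

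**Figure D3:**
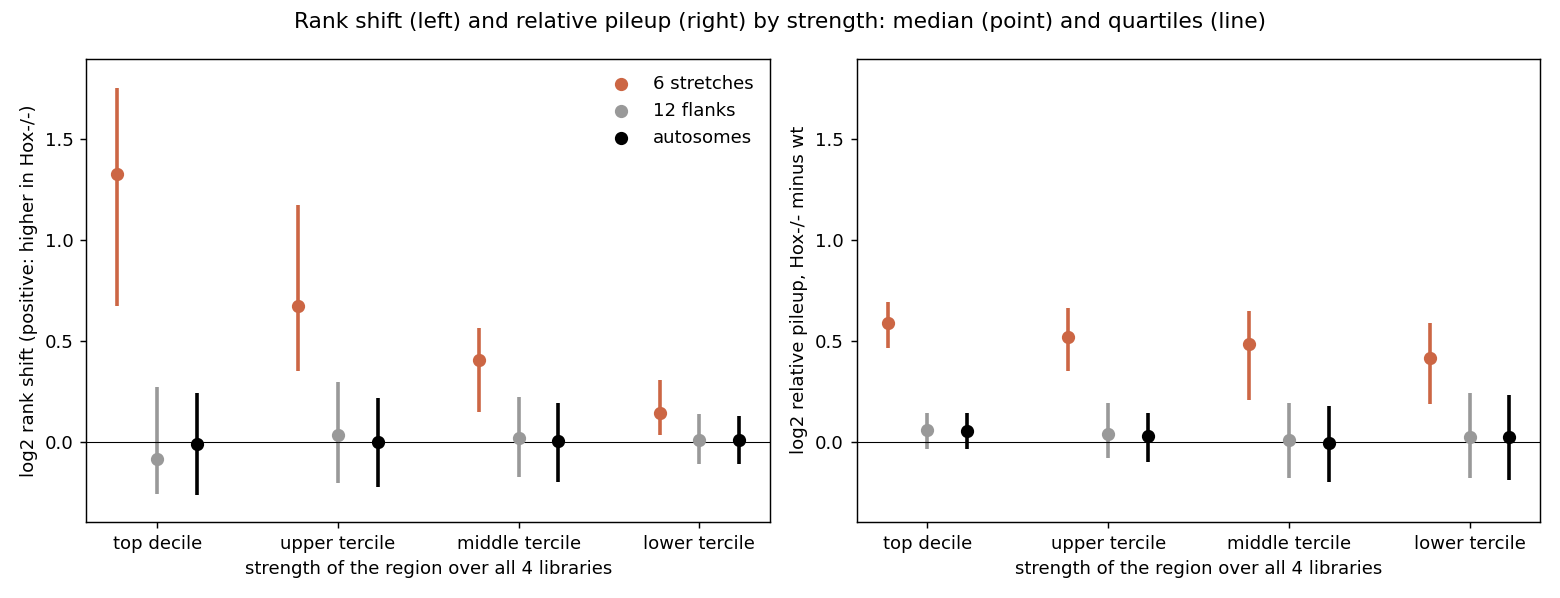
Log2 rank shift (left) and log2 ratio of relative summit pileup, Hox-/- to wt (right), by the strength of the region over all 4 libraries (horizontal axis). Points are medians over regions and vertical lines span the quartiles, for the 6 stretches, their 12 flanks and all autosomes. In the stretches the rank shift goes from 1.33 in the top decile to 0.14 in the lower tercile, while the pileup ratio goes only from 0.59 to 0.42.

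Over all stretches intervals were also wider in Hox-/-, where those outside were narrower. The median width was 473 and 472 bp in wt and 512 and 517 bp in Hox-/- in the stretches, and 490 and 487 bp in wt and 462 and 462 bp in Hox-/- in the flanks. The median log2 width ratio was 0.04 in the stretches and −0.06 both in the flanks and over the autosomes. With only the 100000 strongest lines of each list it was 0.015 in the stretches. The distal stretch of chromosome 12 showed little of this, with a ratio of 0.01 and widths of 474 and 440 bp in wt and 472 and 471 bp in Hox-/-. Both Hox-/- widths exceeded both wt widths at 136 of 469 regions (29.0%), against a background of 9.64%. Called intervals covered 9.31 and 9.55 kb per Mb of stretch in wt and 11.3 and 11.9 kb in Hox-/-, compared with 33.1 and 33.1 kb in wt and 29.4 and 30.7 kb in Hox-/- in the flanks.

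Pooled over the 12 edges, the shift was smaller just inside than further in, but the edges contribute unequally to each distance and single edges differed. The regions that end each stretch had shifts between −0.37 and 0.47, and the next regions outside had shifts between −0.31 and 0.29. In the first 250 kb outside the 12 edges the median was −0.01, and 12.9% of 116 regions were higher in both Hox-/- libraries. In the first 250 kb inside it was 0.13, with 37.6% of 85 regions, and from 250 to 500 kb inside it was 0.31, with 56.8% of 88 regions. In that first 250 kb the median was 0.30 at the left edge on chromosome 4 (23 regions) and 0.30 at the left edge of distal chromosome 12 (14 regions), and −0.27 at the right edge on chromosome 1 (6 regions). Those left edges on chromosome 4 and distal chromosome 12 also supplied 55 of the 88 regions from 250 to 500 kb, with medians there of 0.30 (28 regions) and 0.37 (27 regions), so they rose little or not at all going inward. Of the 9 edges with regions at both distances 7 had a higher median further in and 2 a lower one, among them the right edge of proximal chromosome 12, with 0.41 (4 regions) and then 0.24 (15 regions). The pooled medians at the 2 distances thus come from different mixes of edges. Beyond 500 kb the 250 kb bins held 17 to 36 regions and had medians between 0.27 and 0.60. Distances were taken from each edge, up to 2 Mb, so in the shorter stretches a region can be counted from both. Some of these inner bins thus also hold regions close to the opposite edge. On the outside the bins from 250 kb to 2 Mb had medians between −0.03 and 0.07. If each stretch is taken from its outermost run of 3 consecutive regions higher in both Hox-/- libraries, the limits moved inward by up to 1871 kb, on the left of chromosome 1, and the median shift of the 392 regions kept was 0.41, a value that this choice of limits raises by itself.

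**Figure D4:**
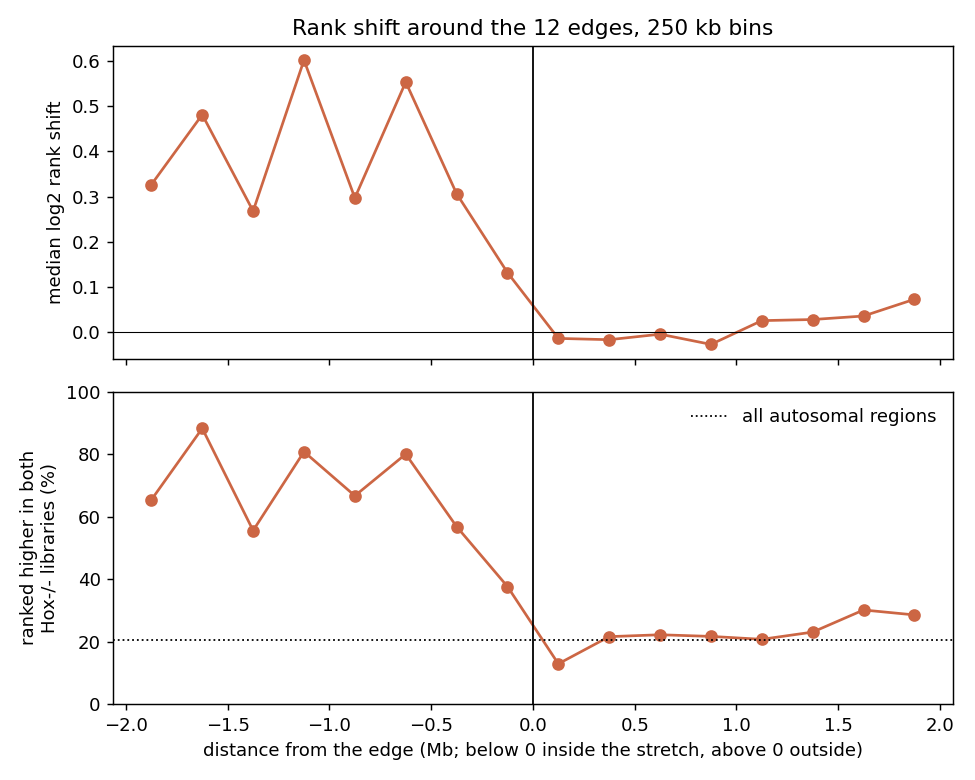
Median log2 rank shift (top) and share of regions ranked higher in both Hox-/- libraries (bottom, percent) in bins of 250 kb by distance from each of the 12 edges (horizontal axis, Mb, negative inside). In the shorter stretches a region can be counted from both edges. The dotted line is the share over all autosomal regions, 20.5%. Pooled over the edges, both curves are low outside and go up over the first 500 kb inside.

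The edges were named by the nearest protein-coding gene on either side. On chromosome 1 the left edge lay 281 kb from Kcnt2, a potassium channel gene outside, and 2708 kb from Cdc73, of the Paf1 transcription elongation complex, inside. The right edge lay at an end of Pla2g4a, a cytosolic phospholipase, with the prostaglandin synthase gene Ptgs2 139 kb outside. On chromosome 3 the edges lay between Slitrk3 and the butyrylcholinesterase gene Bche, and between the tryptophan dioxygenase gene Tdo2 and the ion channel gene Asic5. On chromosome 4 the left edge fell within the RNA-binding protein gene Ptbp3, next to Susd1, and the right edge between Mup3 and Mup21. On chromosome 10 the edges lay between Ipmk and Zwint and between Pcdh15 and Rsph14. Both left edges on chromosome 12 fell inside genes, Nbas with Ddx1 outside, and Cep128 with Dio2 outside. The right ones lay beyond Trib2, before Lpin1, and beyond Flrt2, before Galc. The genes on the inner side had shifts of −0.37 at Pla2g4a, −0.02 at Flrt2, 0.00 at Tdo2, 0.06 at Zwint, 0.11 at Bche, 0.15 at Pcdh15, 0.44 at Ptbp3, 0.54 at Trib2, 0.81 at Cdc73 and 2.24 at Cep128, so they ranged widely.

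Counted by gene, with either end, the genotypes had like numbers of open genes. A gene end was taken as open where a region was called no further than 1 kb away. Of the 77 genes the wt libraries had 46 and 47 with an open end, and the Hox-/- libraries also 46 and 47. In all 4 libraries 44 had one (57.1%, against 71.4% of all autosomal protein-coding genes), and 29 had none in any (37.7% against 23.8%), 22 of them Mup genes. Without the Mup genes these shares were 79.6% and 13.0%. Genes with a called end in both Hox-/- and neither wt library numbered 0, against a background of 0.14%, and the reverse also 0, against a background of 0.595%. The 43 genes with such an end inside a stretch had 40 distinct regions. The shift was positive at 34 of these, both Hox-/- ranks were better at 27, and the median was 0.66, with a range from −0.37 to 3.15. Of all autosomal regions at gene ends 52.3% had a positive shift and 20.2% were higher in both.

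The best-ranked gene ends moved among the very top places of the lists. At Sel1l, an adaptor of endoplasmic reticulum protein degradation (chr12:91848769-91849576), the ranks were 97 and 137 in wt and 12 and 14 in Hox-/-, a shift of 3.15. At Cep128, in the same stretch (chr12:91383760-91384890) they were 76 and 49 in wt and 14 and 12 in Hox-/-, a shift of 2.24. In both cases the genotypes did not overlap. Of the 6 ranked gene-end regions of that stretch 4 were higher in both Hox-/- libraries, beside 20.2% of all autosomal gene-end regions. Those at Ston2 (shift −0.04) and Flrt2 (−0.02) were not. The best-ranked ends were picked by the mean rank over all 4 libraries, which includes the Hox-/- ranks. Tshr, the thyrotropin receptor gene, which lies between Cep128 and Sel1l, ranked 10569 and 9008 in wt and 4640 and 4337 in Hox-/-, a shift of 1.12.

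On chromosome 3 the shared end of Pdcd10, which acts in blood vessel integrity, and Serpini1, which encodes neuroserpin (chr3:75556098-75557732), ranked 840 and 1812 in wt and 89 and 263 in Hox-/-, a shift of 3.01. The shared end of Etfdh and 4930579G24Rik (chr3:79628355-79629662) ranked 819 and 712 in wt and 104 and 108 in Hox-/-, a shift of 2.85. Both Hox-/- values were ahead of both wt values at each, but at Pdcd10 the replicates lay further apart. Of the 20 genes with a ranked end in the chromosome 3 stretch, 14 were higher in both Hox-/- libraries (12 of 18 distinct regions), beside 20.2% of all autosomal gene-end regions. Those not yet named, besides the neuronal genes Gria2 and Glrb described further on, are Zbbx (shift 2.02), the Rap exchange factor gene Rapgef2 (1.72), the folliculin partner gene Fnip2 (1.71), the Golgi protein gene Golim4 (1.35), Fstl5 (0.88), the cyclophilin gene Ppid (0.67), the growth factor gene Pdgfc (0.64) and Tmem144 (0.42). The other 6 did not pass, with shifts of 0.22 at Gm29808, 0.12 at Gask1b, 0.11 at Bche, 0.11 at Serpini2, −0.0013 at Tdo2 and −0.10 at Ctso. Ranked by fold over background, Fstl5 turned to −1.33 and Pdgfc to −0.033.

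The remaining best-ranked ends were lower in their lists. On chromosome 1 Rgs2 (chr1:144003846-144004915) ranked 3571 and 2400 in wt and 360 and 1004 in Hox-/-, a shift of 2.28. The shared end of Ro60, which binds small noncoding Y RNAs, and Uchl5, a proteasome deubiquitinase (chr1:143776605-143778003), ranked 3142 and 3235 in wt and 746 and 1057 in Hox-/-, a shift of 1.84. Cdc73 ranked 18672 and 12516 in wt and 7635 and 9915 in Hox-/-, a shift of 0.81. None of these 3 ends overlapped between genotypes, and of all 5 ranked gene-end regions of that stretch 4 were higher in both Hox-/- libraries, beside the same 20.2%. On chromosome 4 Inip (chr4:59782982-59784175) ranked 2620 and 1746 in wt and 525 and 576 in Hox-/-, a shift of 1.96. The dehydrogenase-like gene Hsdl2 and the sorting nexin gene Snx30 had smaller shifts, of 0.65 and 0.73. Of the 7 ranked gene-end regions of that stretch 5 were higher in both Hox-/- libraries, beside the same 20.2%.

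The size of these shifts rested on the ranking by p-value. Ranked by fold over background, the shift was 1.46 at Sel1l, 0.82 at Cep128, 0.29 at Pdcd10, 0.21 at Etfdh, 0.83 at Rgs2, 0.22 at Ro60 and 0.39 at Inip, and at Hsdl2 it turned to −0.071. All but the last kept their direction.

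Chromosome 10 and proximal chromosome 12 have few genes. Zwint (chr10:72654304-72655535), at the left edge of the stretch, ranked 6530 and 6470 in wt and 5148 and 7503 in Hox-/-, so the genotypes overlapped, with a shift of 0.06. Pcdh15 ranked 94834 and 64483 in wt and 69635 and 71318 in Hox-/-, which also overlapped, with a shift of 0.15. On proximal chromosome 12 Lratd1 (chr12:14151448-14152427) ranked 7467 and 8056 in wt and 2731 and 1933 in Hox-/-, a shift of 1.76. Trib2, a pseudokinase gene, ranked 26168 and 22482 in wt and 13133 and 21046 in Hox-/-, a shift of 0.54. Neither of these 2 overlapped, and they are all the ranked gene ends inside that stretch. Of all autosomal gene-end regions 20.2% were higher in both Hox-/- libraries. The open end of Nbas lies outside the stretch, and its shift was −0.16.

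**Figure D5:**
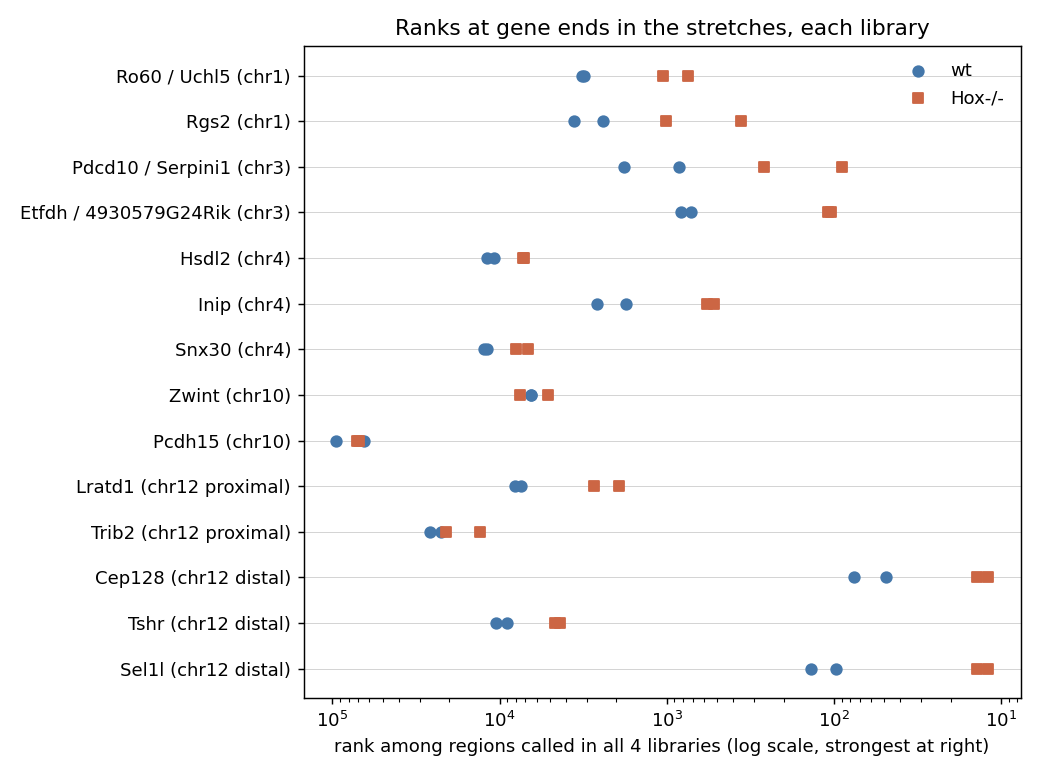
Rank of the open gene end in each library (horizontal axis, log scale, strongest at the right) for the best-ranked genes of each stretch. Circles are wt and squares are Hox-/- libraries. Sel1l and Cep128 reach places 12 to 14 in Hox-/-, and Zwint and Pcdh15 overlap between the genotypes.

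Gene groups were described by lists chosen with earlier results known. Of 5 RGS genes on chromosome 1, which speed up the switching off of G proteins, Rgs2 alone had an end called in all 4 libraries. Rgs1 had a weak region in Hox-/- replicate 2 only, and Rgs13, Rgs18 and Rgs21 had none. Of 8 neuronal receptor, channel, adhesion and secreted protein genes in the stretches, 7 had a ranked end, and 4 of these were higher in both Hox-/- libraries, with a median shift of 0.83, beside 20.2% of all autosomal gene-end regions. Gria2, an AMPA receptor subunit gene, ranked 10704 and 9252 in wt and 2121 and 2889 in Hox-/- (shift 2.01), without overlap. Glrb, a glycine receptor subunit gene, ranked 35498 and 36900 in wt and 23837 and 17384 in Hox-/- (shift 0.83), also without overlap. The median shift of 3 genes of this list in the flanks was −0.24. All 10 widely expressed genes in the stretches had a ranked end, 9 of them higher in both Hox-/- libraries, with a median of 1.08, and of 6 in the flanks none was, with a median of 0.07. Since Ro60 and Uchl5 share one, the 10 genes have 9 distinct regions, 8 of them higher in both, with a median of 0.81. The 6 genes in the flanks have 5 distinct regions, with a median of 0.099. The end of Pdcd10 is also that of Serpini1 in the neuronal list.

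The shift at gene ends went with the CpG content of the promoter. Among windows under a region called in all 4 libraries, those with 8 or more CpG had 25 distinct regions, 21 of them higher in both Hox-/- libraries, with a median shift of 0.83. Those with under 8 CpG had 7 regions, 1 of them higher in both, with a median of −0.01. That 1 region also has a CpG-rich window, and 2 regions are in both groups. Over the autosomes 19.7% and 18.8% of such regions were higher in both, with medians of 0.02 and 0.01. The CpG-rich group was also the stronger, with a median rank over the 4 libraries of 6356 against 54145, and gene ends in the upper tercile had a median shift of 0.85 (30 regions) against 0.11 for the other gene ends (15 regions), so strength and CpG cannot be told apart here. Distal regions, over 1 kb from a gene end, shifted too, by a median of 0.33 over 424 regions, and by 0.65 in the upper tercile against 0.85 at gene ends.

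The best-ranked distal region of all stretches was chr1:143555236-143556141, 47.1 kb from the nearest end of Cdc73 and outside any protein-coding gene. It ranked 396 and 278 in wt and 29 and 27 in Hox-/-, a shift of 3.57, the highest among those named here. On chromosome 3 the best was chr3:75650387-75651137, 7.86 kb from an end of Serpini1, with ranks of 3249 and 2874 in wt and 348 and 571 in Hox-/- (shift 2.78). On distal chromosome 12 it was chr12:91778567-91779560, inside the endocytic adaptor gene Ston2, with 1731 and 2481 in wt and 670 and 601 in Hox-/- (shift 1.71). The best distal regions of the other stretches had shifts of 1.64 on proximal chromosome 12 (58.1 kb from Lratd1), 1.33 on chromosome 4 (3.06 kb from Mup4) and 0.53 on chromosome 10 (inside Pcdh15). In none of the 6 did the genotypes overlap, beside 21.2% of the autosomal distal regions in the upper tercile of rank that were higher in both Hox-/- libraries. These 6 were also picked by a mean rank that includes the Hox-/- ranks.

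In the long intervals without a protein-coding gene the regions called in all 4 libraries were few. The median shift was 0.37 over 13 regions between Brinp3 and Pla2g4a, 0.27 over 29 between Fstl5 and Rapgef2, 0.52 over 17 between Lratd1 and Trib2 and 0.21 over 16 between Gm40892 and Flrt2. All 4 medians were positive, in stretches that had been chosen on these same ranks. Distance to genes of other kinds was not examined.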

How the data were processed

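ATAC-seq of 2 wt and 2 Hox-/- libraries was analysed from 1 peak list per library, grouped by the genotype label. The submitters' processing notes name cutadapt 4.8, Bowtie2 2.5.0, Picard 2.18.2, bedtools 2.30.0, MACS2 2.2.9.1, deepTools 3.5.4 and the build mm10, without saying how each was used. Whether reads were shifted for the transposase is not given in the sources used here. Each line deposited by the authors holds an interval, an integer score, a fold over background, a −log10 p and a −log10 q. These are the authors' values, used only to rank, filter or describe lines within 1 list. The lowest −log10 q was 1.30, so weaker peaks are not in the lists, and no read depth is given.

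Lines of all lists sharing 1 bp or more were merged into regions. A library ranked, by −log10 p, the regions of the 19 autosomes called in all 4 libraries, with the best line of each. The summit pileup and background were recovered from fold and p under a Poisson model, in which 100% of pileups were whole within 0.05, and a background counted as above the lowest at over 1.05 times its 0.1% quantile. A gene end was open where a region lay within 1 kb of it. Gene ends and promoter windows came from RefSeq tables of GRCm38.p6. Gene ends were known for all 77 genes, and promoter windows for 62 of them. In 701 of 701 overlapping windows on opposite strands the letters were reverse complements. Strength groups were cut on the mean log2 rank of all 4 libraries.

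The stretches, gene lists and measures were chosen with earlier results of these data known, so no comparison between the genotypes was tested. Genes named are those at the edges, the 3 best-ranked of each stretch, the best distal region, the best regions called in 1 genotype only and the gene lists, and others of chromosome 3 were chosen after their values were seen. Alternatives changed the ranking value, the peak threshold, the overlap, the flanks and the windows, left out each library or used the replicate number as a block. The ranking and counting steps were tested on simulated data. Python 3.11.15, pandas 2.3.3, numpy 2.4.6 and scipy 1.17.1 were used.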

Additional observations from a re-analysis of the deposited data

How the results depend on the processing

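The 66 medians of single stretches under the alternatives were all positive, from 0.015 (chromosome 10, ranked by recovered background) to 0.59 (chromosome 3, with the 100000 strongest lines). The pooled median shift of 0.34 became 0.17 when ranked by fold, 0.45 by rank in the full list, 0.38 with a −log10 q of at least 5 and 0.45 with the 100000 strongest lines of each list. It became 0.36 and 0.40 under alternatives chosen after seeing the data, which ranked by recovered pileup and by recovered background. Within the inner limits it was 0.41, which is no check, since those limits were drawn on the same ranks. The share higher in both Hox-/- libraries, 60.3%, became 38.4% when ranked by fold, 70.5% with the 100000 strongest lines and 69.9% by pileup, where the autosomes had 21.3%, 20.7% and 21.0%. The log2 width ratio of 0.043 became 0.015 with the 100000 strongest lines. The regions per Mb relative to the flanks, 0.382, became 0.369 with the stricter q, 0.335 with the strongest lines, 0.431 with flanks of 1 Mb and 0.345 with flanks of 5 Mb. The step at the edges, inside minus outside, was 0.15 in bins of 250 kb and 0.22 in bins of 500 kb.

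Leaving out each library in turn, the pooled shift was between 0.31 and 0.36, the share between 69.7% and 74.1% (34.3% to 37.1% over the autosomes, since fewer ranks have to agree), the call difference between 16.4 and 21.6 points, the log2 width ratio between 0.040 and 0.061 and the regions per Mb relative to the flanks between 0.358 and 0.393. With the replicate number as a block, a region counted as higher when both same-numbered pairs were, and the share was 68.7% (28.3% over the autosomes), with the pooled shift at 0.34. The replicate differences of the 2 genotypes correlated at 0.00448 over 120132 regions. This cannot show whether libraries of the same number were prepared together, which the labels do not say.

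Of 462 values at gene ends 433 kept their sign, 133 of all values moved by more than the spread between replicates without a reversal, and 25 changed sign at genes whose genotypes overlapped in rank. At genes without overlap 4 reversed, when ranked by fold, to −1.33 at Fstl5, −0.033 at Pdgfc, −0.071 at Hsdl2 and −0.053 at Gtf2a1, and the cause was not tested. The recovered lowest background, a stand-in for depth, was lower in Hox-/- replicate 1 than in the other libraries, and its effect on weak calls was not tested. No list holds signal outside called peaks.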
